A study of Homo sapiens with 7 samples.

Results

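Integrins are cell-surface receptors built from an alpha and a beta subunit that bind matrix proteins or counter-receptors on other cells. The genes described here are 10 integrin subunits, ITGA4, ITGA5, ITGA6, ITGAE, ITGAL, ITGAM, ITGAX, ITGB1, ITGB2 and ITGB3, taken by symbol from a count table of 60666 genes. They are part of the 26 integrin subunit genes of the human genome, and the other 16 are given as context. RNA was sequenced from 7 libraries that the labels assign to RPMI 8226, a human multiple myeloma line, multiple myeloma being a cancer of antibody-secreting plasma cells. Of these, 3 libraries carry the label RY, for a change of 2 residues in the ZnF-UBP domain of the deacetylase HDAC6 after which it no longer binds ubiquitin. Another 2 are labelled KO, for a knockout of HDAC6, and 2 are labelled WT, the unedited line. RY and KO come from CRISPR-Cas9 editing, and all 7 libraries share the labelled line and culture medium. The labels do not say whether an edited line is 1 clone or whether the replicates of a group were cultured separately. The p-values here speak only of how much these libraries varied, which may be technical.

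Each integrin heterodimer has its own ligands. ITGB1 pairs with ITGA4, ITGA5 and ITGA6, whose dimers bind VCAM1 and fibronectin, fibronectin, and laminin. ITGB2 is the beta chain of the leukocyte integrins and pairs with ITGAL (LFA-1, a receptor for ICAM proteins), ITGAM (Mac-1) and ITGAX, the last being typical of myeloid and dendritic cells. ITGAE pairs with ITGB7 and binds E-cadherin, and ITGA4 can pair with ITGB7 too. ITGB3 pairs with ITGAV or, in platelets, with ITGA2B. In myeloma, alpha 4 integrins are known for holding tumour cells to bone marrow stroma.

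The libraries labelled RY stood apart from the rest before any integrin was considered. Library totals ran from 31368968 to 42813888 counted reads. Across genes, log2 CPM (reads scaled to a common library size) correlated at 0.986 to 0.995 within groups, at 0.946 to 0.958 between KO and WT, and at 0.682 to 0.753 between RY and the other 4 libraries, where genes are not independent replicates. HDAC6 itself had a mean level of 99.1 ± 10.2 CPM across the 3 RY libraries, 15.9 ± 4.38 CPM across the 2 of KO and 67.2 ± 14.2 CPM across the 2 of WT (SD). The summed level of 12 plasma cell markers was 367 to 402 CPM in RY, 5120 to 6000 CPM in KO and 7960 to 9170 CPM in WT. Among the defining markers, TNFRSF17 (BCMA) had 0 reads in all 3 RY libraries and SDC1 (CD138) averaged 0.0327 CPM there, against 241 CPM in KO and 201 CPM in WT. The summed level of 16 myeloid markers was 1430 to 1600 CPM in RY, 87.5 to 92.3 CPM in KO and 176 to 215 CPM in WT. More than 3 reads were found for 8 to 9 of the 12 plasma cell markers in RY and for all 12 in KO and WT. For the 16 myeloid markers the counts were 14 to 15 in RY, 7 to 8 in KO and 10 to 11 in WT. Markers higher in RY were not only myeloid. By the rule for calls given below, 10 of 14 tested myeloid markers were higher and 1 lower in RY than in WT. Of 7 tested B cell markers, 5 were higher and 2 lower. Of 6 tested T and NK cell markers, 3 were higher and 3 lower. Of 5 tested epithelial and stromal markers, 0 were higher and 3 lower. Against KO these 3 lists had the same counts. Each RY result below therefore sets libraries low in plasma cell markers against libraries high in them, and what part this has in any difference was not tested. With TNFRSF17 unread and SDC1 near 0, the defining markers go against the plasma cell label in the RY libraries. Whether these libraries come from the labelled line was not tested, and a difference between lines and an effect of the HDAC6 change cannot be told apart in any comparison with RY below.

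Of the 10 subunits, 9 had enough reads to be tested. A gene is called here when it changed by 2-fold or more and its p, adjusted by Benjamini and Hochberg's method over all 18281 genes tested, was below 0.05. Between RY and WT, 7 of the 9 were called higher and 1 lower in RY, where 49.3% of all genes were called, 23.9% higher and 25.4% lower. The median log2 fold change was 2.40 over the 9 subunits and -0.03 over all genes. Between RY and KO the same counts were 7 higher and 1 lower, where 50% of all genes were called, 24.2% higher and 25.9% lower. Between KO and WT, 0 were higher and 2 were lower in KO, where 10.9% of all genes were called, 3.68% higher and 7.21% lower. By library values alone, 8 subunits in RY lay wholly above WT and 1 wholly below, where 81.7% of all genes did not overlap (40.5% higher, 41.2% lower). The same 8 and 1 held against KO, where 84.6% did not overlap (41.3% higher, 43.3% lower). KO lay wholly below WT for 5 subunits and above it for 0, where 48.7% of all genes did not overlap (22.8% higher, 25.9% lower). The 3 comparisons share their libraries pairwise and are not independent of each other.

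**Figure D1:**
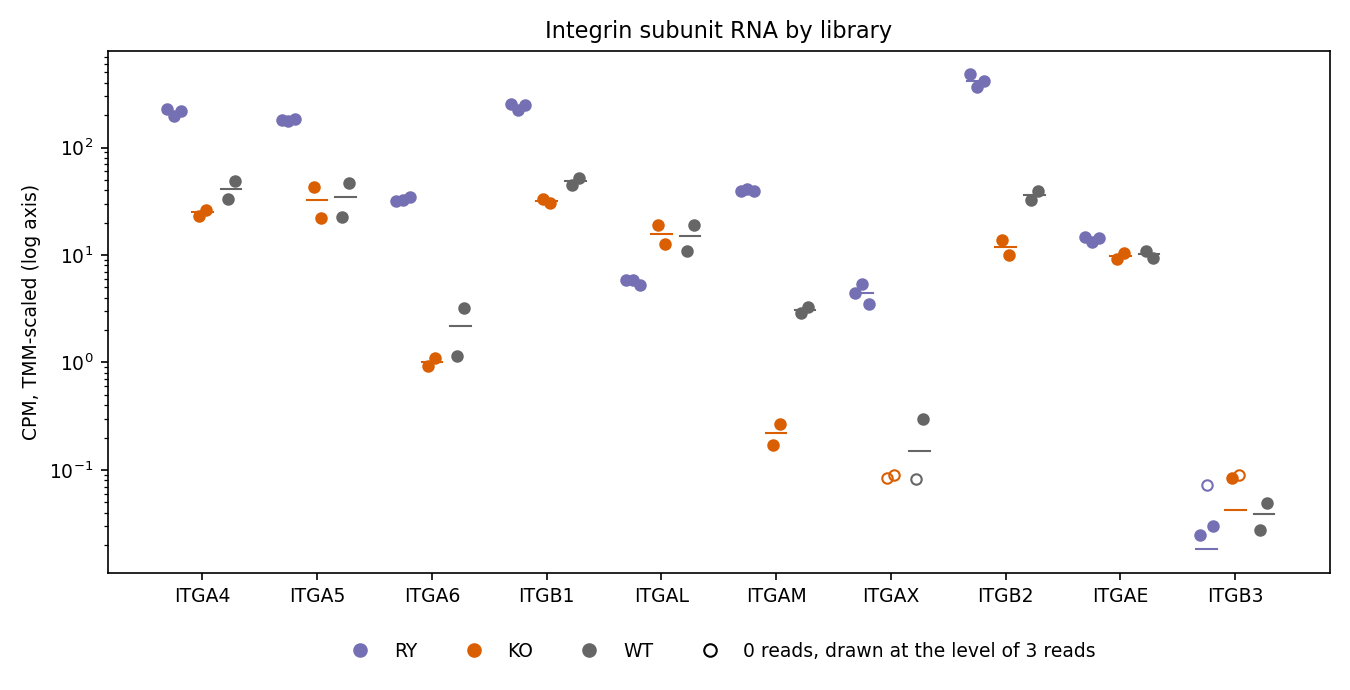
CPM of the 10 subunits (log axis) in each library of RY, KO and WT. Points are libraries, lines are group means over all libraries of the group, and open circles are libraries with 0 reads, drawn at the level of 3 reads. ITGB2, ITGAM, ITGA6, ITGA4, ITGA5, ITGB1, ITGAX and ITGAE stood higher in all 3 RY libraries than in any other, and ITGAL stood lower. ITGAE lay between 9.22 and 14.6 CPM in every library.

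The beta 2 chain and its myeloid partner ITGAM were high in RY, low in KO and intermediate in WT, with both steps called. ITGB2 (ENSG00000160255, chromosome 21, 44885953 to 44931989, GRCh38) stood at 478, 362 and 415 CPM in the RY libraries, 13.7 and 9.93 CPM in KO, and 32.4 and 39.1 CPM in WT. No library of one group overlapped with another group. RY exceeded WT 11.6-fold (log2 3.55, SE 0.18, adjusted p = 2.61e-07 by edgeR's quasi-likelihood test, as for every adjusted p unless another source is named) and KO 35.1-fold (adjusted p = 4.14e-08). KO fell 3.02-fold below WT (log2 -1.59, SE 0.19, adjusted p = 0.000466).

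ITGAM (ENSG00000169896, chromosome 16, 31259967 to 31332892), the alpha chain of the complement and fibrinogen receptor Mac-1, stood at 39.0, 40.7 and 39.6 CPM in RY, 0.169 and 0.270 CPM in KO, and 2.89 and 3.28 CPM in WT. The KO values rest on 6 and 9 reads. RY was 12.9-fold above WT (log2 3.69, SE 0.14, adjusted p = 3.52e-08) and 183-fold above KO. KO was 14.2-fold below WT (log2 -3.81, SE 0.27, adjusted p = 2.67e-05). The 2 KO against WT calls, ITGAM and ITGB2, were also made without any RY library in the fit (adjusted p = 0.0053 and 0.00892).

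ITGAX (ENSG00000140678, chromosome 16, 31355134 to 31382997), which lies just beyond ITGAM on the same strand and encodes CD11c, was the scarcest tested subunit. Its reads numbered 176, 224 and 115 in RY, 0 and 0 in KO, and 0 and 12 in WT, or 4.4, 5.39 and 3.48 CPM in RY and 0.298 CPM in the WT library with reads. RY was 28.6-fold above WT (adjusted p = 9.62e-05), a value that rests on WT replicate 2. The fitted log2 fold change was 4.80 with all libraries, 3.88 without WT replicate 1 and 10.35 without WT replicate 2, the last against 0 reads and so dependent on the prior count. Against KO, RY was at least 103-fold higher, with KO set at 3 reads over the group. KO and WT overlapped at 0 reads and the difference was not called (adjusted p = 0.25), although without WT replicate 1 it was (adjusted p = 0.0484). ITGAD, the next gene of this chromosome 16 cluster and the fourth partner of ITGB2, had 0 reads in all 7 libraries.

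ITGAL (ENSG00000005844, chromosome 16, 30472658 to 30523185) went the other way from the rest of the beta 2 family. It stood at 5.88, 5.83 and 5.26 CPM in RY, 18.9 and 12.6 CPM in KO, and 10.9 and 19.1 CPM in WT. The RY libraries lay below all others, while KO and WT overlapped. RY was 2.68-fold lower than WT (log2 -1.41, SE 0.25, adjusted p = 0.000779) and 2.79-fold lower than KO (adjusted p = 0.000578). Without WT replicate 2 the log2 fold change between RY and WT was -0.95, under the 2-fold minimum. Between KO and WT it was 0.07 (SE 0.26, adjusted p = 0.914).

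Per kilobase of exon, ITGAL made up 9.83 to 10.8% of the summed ITGAL, ITGAM and ITGAX RNA in RY, 97.6 and 99.0% in KO, and 76.9 and 82.6% in WT. The beta chain was in excess of these 3 alpha chains in RY, at 6.03 to 8.39 times their summed level per kilobase. The ratio was 0.687 and 0.731 in KO, and 2.17 and 1.62 in WT. RNA ratios do not show how much dimer reaches the cell surface.

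The beta 1 chain and its 3 alpha partners among the 10 subunits were all higher in RY. Other alpha chains that can pair with it went both ways, with ITGAV called lower in RY and ITGA7 called higher, as given below. ITGB1 (ENSG00000150093, chromosome 10, 32900319 to 33005792), the shared beta chain of the matrix receptors, stood at 252, 222 and 246 CPM in RY, 33.2 and 30.3 CPM in KO, and 45.0 and 52.0 CPM in WT. The 3 groups did not overlap. RY was 4.92-fold above WT (log2 2.31, SE 0.11, adjusted p = 1.61e-07) and 7.53-fold above KO. KO lay 1.53-fold below WT (adjusted p = 0.00611), short of the 2-fold minimum, and with the RY libraries left out of the fit that adjusted p was 0.0517.

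ITGA4 (ENSG00000115232, chromosome 2, 181457202 to 181536187), the VLA-4 alpha chain, stood at 230, 197 and 218 CPM in RY, 23.3 and 26.5 CPM in KO, and 32.9 and 48.5 CPM in WT. These groups did not overlap either, although the WT libraries were further apart than those of KO. RY was 5.22-fold above WT (log2 2.40, SE 0.17, adjusted p = 1.74e-06) and 8.65-fold above KO. The KO level was 1.66-fold below that of WT (adjusted p = 0.0229), again under 2-fold, and the adjusted p was 0.112 without RY libraries.

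ITGA5 (ENSG00000161638, chromosome 12, 54395261 to 54419460), the fibronectin receptor alpha chain, stood at 181, 175 and 183 CPM in RY, 43.0 and 22.1 CPM in KO, and 22.4 and 46.4 CPM in WT. The RY libraries agreed closely, while the replicates of KO and of WT each differed widely, and KO and WT overlapped. RY was 5.11-fold above WT (log2 2.38, SE 0.34, adjusted p = 0.000176), or log2 2.99 with WT replicate 2 left out. For KO against WT the estimate was -0.08 on the log2 scale (SE 0.34, adjusted p = 0.924), or 0.54 with WT replicate 2 left out.

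ITGA6 (ENSG00000091409, chromosome 2, 172427354 to 172506282), a laminin receptor alpha chain, stood at 32.1, 32.7 and 34.7 CPM in RY, 0.928 and 1.11 CPM in KO, and 1.14 and 3.23 CPM in WT. RY was 14.7-fold above WT (log2 3.90, SE 0.30, adjusted p = 3.28e-06), or log2 4.85 without WT replicate 2, and 32.5-fold above KO. KO was 2.21-fold below WT in reads, and this was not called (adjusted p = 0.13). The call was made without WT replicate 1 (log2 -1.67, adjusted p = 0.000324) and by DESeq2 (adjusted p = 0.0257), and without WT replicate 2 the log2 fold change was -0.17. The authors' deposited table of KO against WT lists ITGA6 at a log2 fold change of -1.11 with an adjusted p of 0.0418, beside ITGAM and ITGB2.

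The ratio of the beta 1 chain to the sum of ITGA4, ITGA5 and ITGA6 did not separate the groups. Other alpha chains that can pair with ITGB1 were left out of that sum. They include ITGA3, with means of 1.36 CPM per kb in RY, 2.18 in KO and 2.11 in WT. In the same order, ITGA7 stood at 6.04, 0.43 and 0.525, and ITGAV at 2.03, 4.7 and 5.76. Whether a ratio with them would separate the groups was not tested. Per kilobase, ITGB1 stood at 0.697 to 0.724 of the summed ITGA4, ITGA5 and ITGA6 level in RY, 0.630 and 0.783 in KO, and 1.03 and 0.678 in WT, so the RY range lay inside those of KO and WT together.

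**Figure D2:**
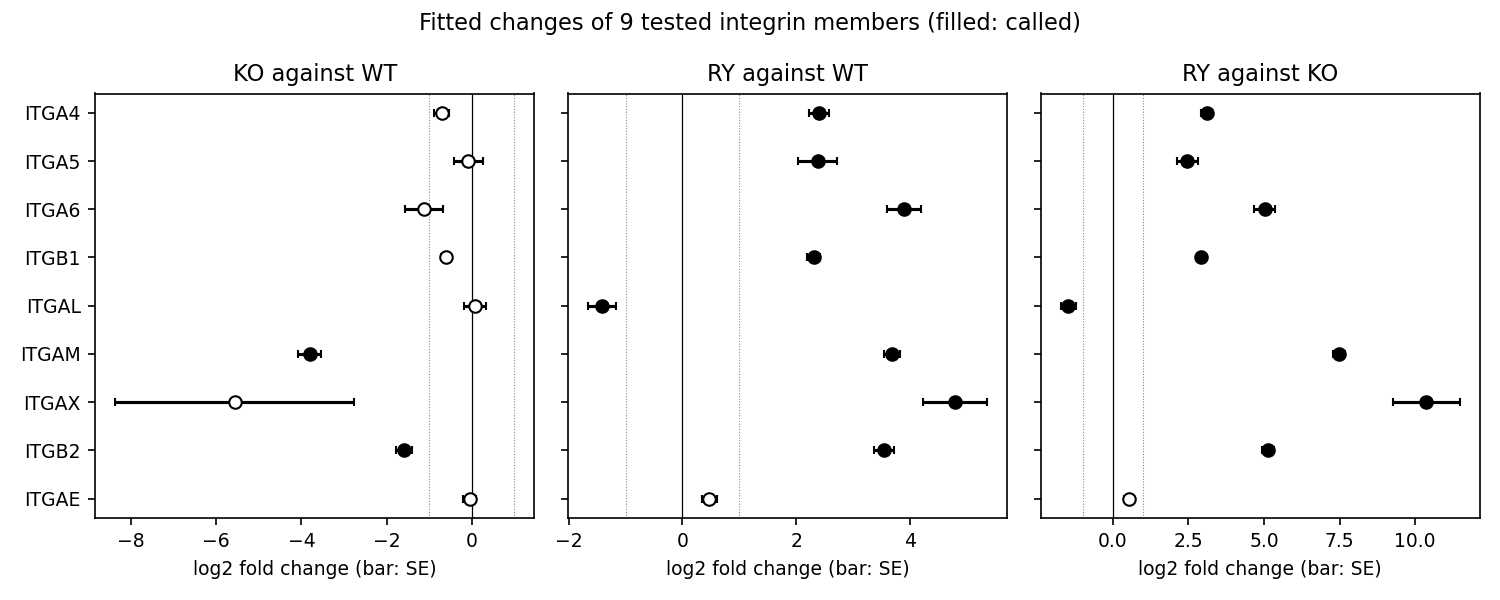
Fitted log2 fold changes of the 9 tested subunits in the 3 comparisons, with bars for the SE and filled points where the adjusted p was under 0.05 and the fold at least 2. Dotted lines mark a 2-fold change. In both RY comparisons 7 subunits were called on the right and ITGAL on the left, with ITGAE to the right but inside the 2-fold line. In KO against WT only ITGAM and ITGB2 were called.

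ITGAE and ITGB3 were the subunits without a call. ITGAE (ENSG00000083457, chromosome 17, 3714628 to 3801243), the alpha E chain, stood at 14.6, 13.2 and 14.5 CPM in RY, 9.22 and 10.5 CPM in KO, and 11 and 9.39 CPM in WT. RY lay above every other library, 1.38-fold above WT (log2 0.47, SE 0.13, adjusted p = 0.0112) and 1.43-fold above KO (adjusted p = 0.00677), both under the 2-fold minimum. Exons of ITGAE overlap those of HASPIN on the opposite strand, which had 1140 to 1428 reads in RY, 562 and 627 in KO and 815 and 614 in WT, against 478 to 584, 328 and 349, and 398 and 378 reads of ITGAE. ITGB3 (ENSG00000259207, chromosome 17, 47253846 to 47311816), the platelet beta chain, had 1, 0 and 1 reads in RY, 3 and 0 in KO, and 1 and 2 in WT. It was not detectable above the level of 3 reads at this depth, 0.0262 CPM over RY, 0.0435 over KO and 0.0393 over WT, and no fold is given.

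Ordered by level per kilobase of exon, RY ran from ITGB2 (61.5 ± 8.61 CPM per kb, SD, n = 3) through ITGB1 (40.0 ± 2.60), ITGA4 (27.2 ± 2.07), ITGA5 (23.7 ± 0.543), ITGAM (7.0 ± 0.152), ITGA6 (5.08 ± 0.215), ITGAE (2.12 ± 0.112), ITGAL (0.874 ± 0.0527) and ITGAX (0.625 ± 0.135) to ITGB3. No neighbours in this order overlapped between libraries. In KO the order began with ITGB1 (5.28 ± 0.341, n = 2), ITGA5 and ITGA4 and went on with ITGAL, ITGB2 and ITGAE. Of these, ITGB1 and ITGA5, ITGA5 and ITGA4, ITGAL and ITGB2, and ITGB2 and ITGAE overlapped. In WT it began with ITGB1 (8.07 ± 0.825, n = 2), above ITGB2, ITGA4 and ITGA5, where each overlapped with the next, followed by ITGAL and ITGAE. ITGB2 thus had rank 1 in RY, 5 in KO and 2 in WT.

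In KO and WT nearly all integrin RNA was ITGB7, the beta chain that pairs with ITGAE and ITGA4. ITGB7 stood at 0.425, 0.409 and 0.696 CPM in RY, 6790 and 6240 CPM in KO, and 6130 and 7420 CPM in WT. It was 13700-fold lower in RY than in WT (adjusted p = 2.24e-10), and KO and WT overlapped. Per kilobase it made up 0.0499 to 0.0865% of the RNA of all 26 subunits in RY, 96.8 and 97.1% in KO, and 96.5 and 96.1% in WT. The 10 subunits described here made up 93.2 to 95.1% in RY, 1.32 and 1.15% in KO, and 1.65 and 1.87% in WT. Their own summed level was 154 to 181 CPM per kb in RY, 20.7 and 16.5 in KO, and 23.4 and 32.2 in WT, while the sum over all 26 subunits was 165 to 190 CPM per kb in RY, 1570 and 1430 in KO, and 1420 and 1720 in WT. In bulk RNA, fewer cells with a transcript and less of it per cell cannot be told apart.

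**Figure D3:**
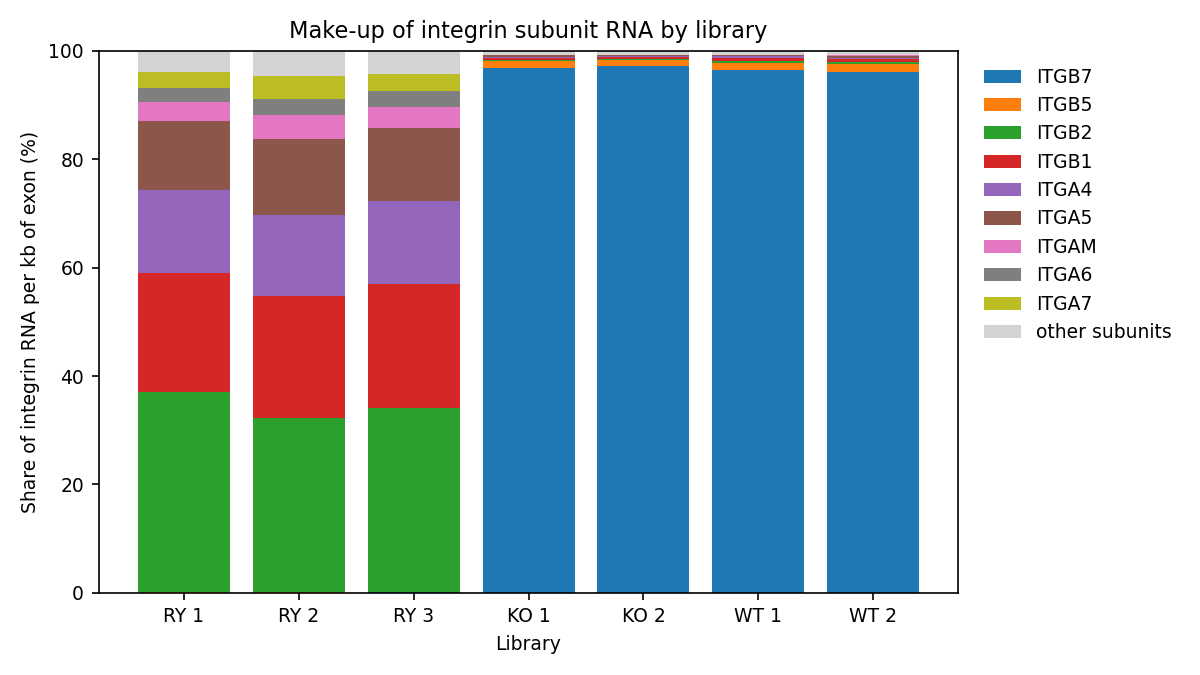
Share of each subunit in the summed RNA of 26 integrin genes, as CPM per kilobase of exon, in percent for each library. ITGB7 filled 96.1 to 97.1% of the bar in KO and WT. In RY the largest parts were ITGB2 (32.2 to 37.0%), ITGB1 (22.0 to 22.8%), ITGA4 and ITGA5.

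Of the other 16 subunits, 11 were tested. Between RY and WT, 4 were higher and 4 lower in RY, where 23.9% of all genes were called higher and 25.4% lower. ITGB5, a partner of ITGAV in vitronectin binding, fell 336-fold to 0.438 ± 0.264 CPM in RY, against 140 ± 31.4 CPM in WT (adjusted p = 2.62e-08). ITGAV fell 2.85-fold (adjusted p = 7.77e-07), and ITGA7, a laminin receptor alpha chain known from muscle, rose 11.5-fold to 38.5 ± 5.11 CPM in RY, against 3.35 ± 0.536 CPM in WT. Between RY and KO, 3 were higher and 4 lower, ITGB7, ITGB5, ITGA7 and ITGAV again among them. Over all genes, 24.2% were called higher and 25.9% lower. Exons of ITGA7 overlap those of BLOC1S1 and METTL7B on the opposite strand. Between KO and WT, where 3.68% of all genes were called higher and 7.21% lower, 1 was higher and 0 lower. That gene, ITGB4, the beta chain of the hemidesmosome, stood at 4.70 and 3.45 CPM in KO and 1.25 and 2.53 CPM in WT (2.12-fold, adjusted p = 0.0497). The ITGB4 call was lost by DESeq2 (adjusted p = 0.0514), with RLE size factors (0.0525), in the legacy edgeR fit, with the replicate block, without RY libraries, and without any single library other than WT replicate 2 (adjusted p = 0.054 to 0.28).

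The WT levels can also be read as a percentage of the RY level. ITGAM in WT was 7.25 and 8.24% of its RY mean, ITGB2 7.75 and 9.36%, ITGA6 3.43 and 9.74%, and ITGAX 0 and 6.74%. Among 209 other genes that reached 20 CPM in RY while KO stayed below 1% of it, WT replicate 1 had a median of 4.04% of the RY level (quartiles 3.08 and 5.43%) and WT replicate 2 a median of 7.09% (5.92 and 8.57%). Of the subunits, only ITGAM meets both limits of that rule. In KO, ITGB2 was at 3.29 and 2.37% of its RY mean and ITGA6 at 2.8 and 3.35%, and ITGAX averaged 4.42 CPM in RY. ITGB1, ITGA4 and ITGA5 in WT were at 12.5 to 25.9% of RY, and in KO at 10.8 to 24%. In the same comparison of KO with WT, 4 of 14 tested myeloid markers were lower in KO and 0 higher. Over all genes, 7.21% were called lower and 3.68% higher. Of other tested markers, 2 of 7 for B cells, 2 of 6 for T and NK cells and 2 of 12 for plasma cells were lower. None of these lists had a marker called higher, and of 5 epithelial and stromal markers 0 were called. MPO, AIF1 and CSF3R, among the myeloid markers called lower, averaged 1.80, 0.435 and 0.161 CPM in KO, against 58.9, 7.50 and 3.04 CPM in WT. What part these percentages and markers have in the lower ITGAM and ITGB2 of KO was not tested.

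**Figure D4:**
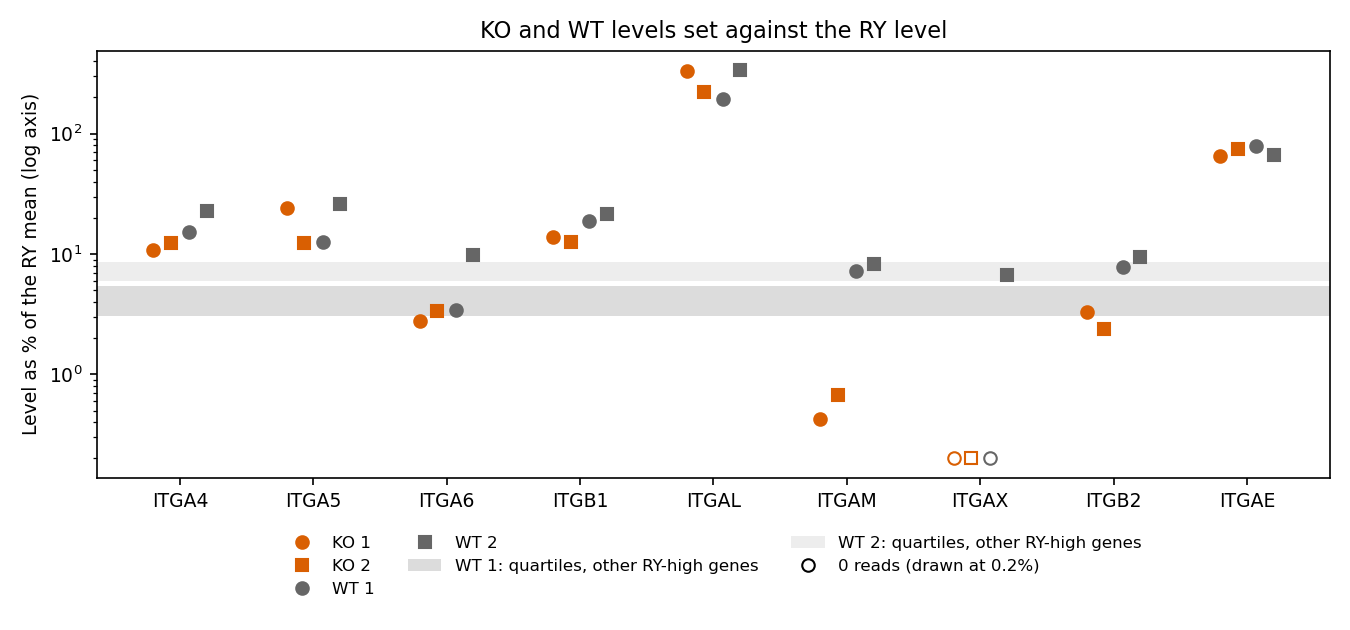
KO and WT levels of the 9 tested subunits as a percentage of their RY mean (log axis), one point per library, with 0 reads drawn at the bottom as open symbols. Bands are the quartiles of the 209 other genes high in RY and below 1% of it in KO, darker for WT replicate 1 and lighter for WT replicate 2. Of the subunits shown, only ITGAM meets both limits set for those genes. ITGAM in WT lay at 7.25 and 8.24%, and in KO at 0.424 and 0.678%.

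Calls among the cytoplasmic partners of integrins went in both directions. Of 33 activators and adaptors, 32 were tested, and 14 were higher and 7 lower in RY than in WT. Over all genes, 23.9% were called higher and 25.4% lower. The median log2 fold change was 0.69, against -0.03 over all genes. PARVG, the parvin of blood cells, stood at 198 ± 7.03 CPM in RY and 11.6 ± 2.71 CPM in WT (17-fold, adjusted p = 3.87e-08). Paxillin, PXN, a focal adhesion scaffold, was 5.05-fold higher, and RASSF5, which links RAP1 to LFA-1, was 6.63-fold lower at 50.3 ± 4.85 CPM in RY, against 331 ± 34.4 CPM in WT (adjusted p = 5.84e-08). Between RY and KO, 15 were higher and 9 lower, where 24.2% of all genes were called higher and 25.9% lower. FERMT3, the kindlin that activates beta 2 integrins in blood cells, stood at 242, 203 and 232 CPM in RY and 0.450 and 1.23 CPM in KO, a 272-fold difference (adjusted p = 1.51e-08).

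Between KO and WT, 1 of the 32 was higher and 5 were lower in KO. Over all genes, 3.68% were called higher and 7.21% lower. FERMT3 fell 47.1-fold, to the KO values above, against 37.5 and 40.3 CPM in WT (log2 -5.55, SE 0.27, adjusted p = 4.61e-06, or log2 -6.40 without KO replicate 2). PARVG fell 17.5-fold (adjusted p = 8.12e-06), at 0.590 and 0.750 CPM in KO and 9.69 and 13.5 CPM in WT. The WT levels of FERMT3 were 16.6 and 17.9% of its RY mean, and those of PARVG 4.88 and 6.82%. NEDD9, a docking protein of focal adhesions, rose 6.64-fold (log2 2.74, or 3.43 without WT replicate 2, adjusted p = 0.000161). Of 5 integrin inhibitors, 0 were called between KO and WT, and 1 was higher in RY than in either other group. The shares over all genes are those given above. The 1 called was DOK1, which competes with talin for the beta chain tail. It stood at 53.7 ± 2.80 CPM in RY, 11.9 ± 1.09 CPM in KO and 12.3 ± 0.181 CPM in WT.

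Calls among integrin ligands also went in both directions. Of 32 ligand genes 21 were tested, and 4 were higher and 12 lower in RY than in WT, with a median log2 fold change of -1.41. Over all genes, 23.9% were called higher and 25.4% lower, with a median of -0.03. Fibronectin, FN1, the ligand of the ITGA5 and ITGA4 dimers, averaged 0.635 ± 0.314 CPM in RY, 654 ± 326 CPM in KO and 3740 ± 149 CPM in WT. SPP1 (osteopontin) was 459-fold lower and the laminin chain LAMA5 239-fold lower in RY than in WT (adjusted p = 1.21e-09 and 1.2e-09). ICAM1, the main LFA-1 ligand, was 13.0-fold lower in RY than in KO. In that comparison 6 ligands were higher and 12 lower, where 24.2% of all genes were called higher and 25.9% lower. Between KO and WT, 3 ligands were higher and 5 lower, where 3.68% of all genes were called higher and 7.21% lower. EDIL3, a ligand of ITGAV dimers, stood at 37.2 and 27.3 CPM in KO and 1.80 and 2.19 CPM in WT (16.2-fold, adjusted p = 1.28e-05), and LAMA2 was 14.3-fold higher in KO. The laminin chain LAMA3 was called lower (adjusted p = 0.00026), at 0.0281 and 0.03 CPM in KO, 1 read in each library, and 0.888 and 1.44 CPM in WT.

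**Figure D5:**
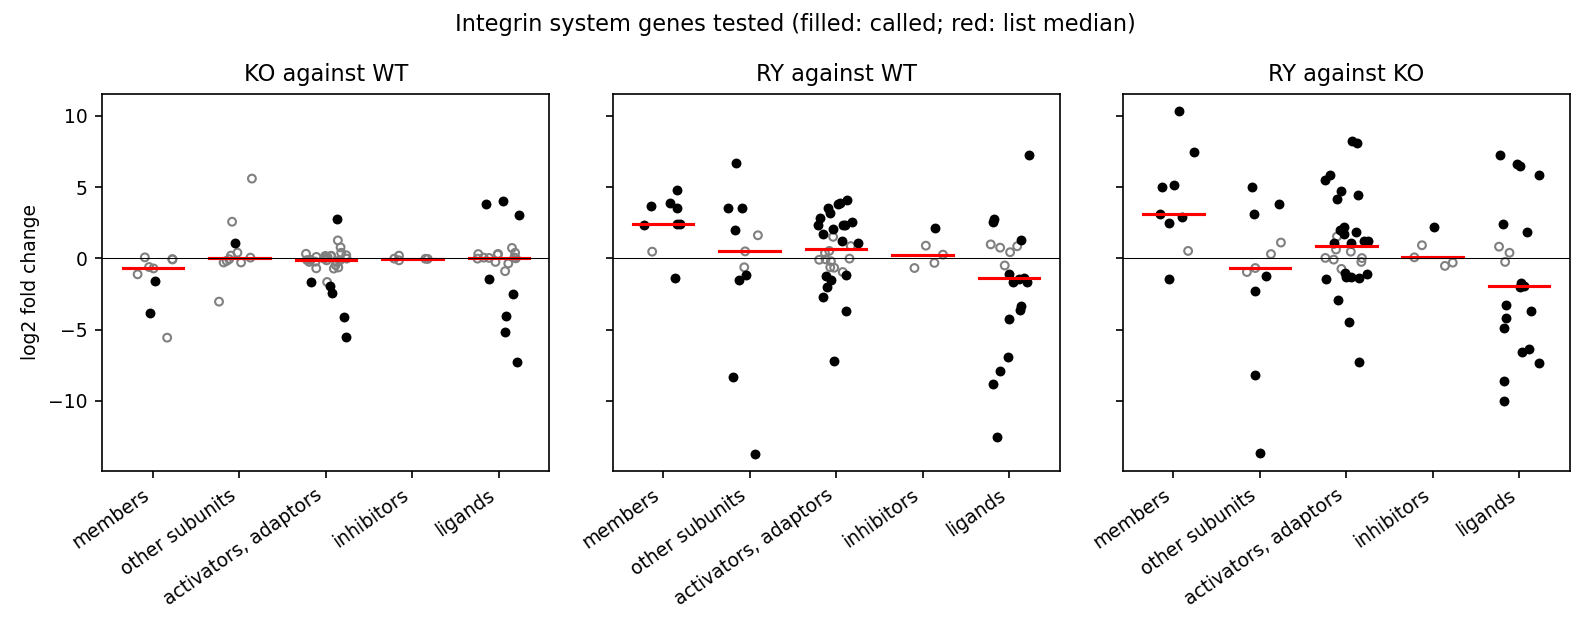
Log2 fold changes of the tested genes of the integrin system in the 3 comparisons, with filled points for called genes and red lines for list medians. The medians of RY against WT were 2.40 over 9 members, 0.49 over 11 other subunits, 0.69 over 32 activators and adaptors, 0.26 over 5 inhibitors and -1.41 over 21 ligands.

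Sequence upstream of the start was at hand for 6 of the 10 genes, in 8 windows, from RefSeq on GRCh38.p14. The windows of ITGAM, called in all 3 comparisons, of ITGAE, which was not called, and of ITGA4, a beta 1 partner, are shown as the 250 bases before RefSeq's start, 5′ to 3′ on the gene's strand. That start lies inside the GENCODE span given above for each of these genes, so each window runs into its span, for ITGA4 over most of its length. Capitals mark GAGGAA, a core bound by the ETS factor PU.1.
ITGAM (chr16:31259725-31259974, plus strand): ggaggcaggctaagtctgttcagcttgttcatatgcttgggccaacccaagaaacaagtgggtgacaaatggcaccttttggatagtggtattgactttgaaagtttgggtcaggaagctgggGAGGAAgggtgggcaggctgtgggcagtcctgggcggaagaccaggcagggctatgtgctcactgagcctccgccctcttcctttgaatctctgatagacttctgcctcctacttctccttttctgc
ITGAE (chr17:3801189-3801438, minus strand): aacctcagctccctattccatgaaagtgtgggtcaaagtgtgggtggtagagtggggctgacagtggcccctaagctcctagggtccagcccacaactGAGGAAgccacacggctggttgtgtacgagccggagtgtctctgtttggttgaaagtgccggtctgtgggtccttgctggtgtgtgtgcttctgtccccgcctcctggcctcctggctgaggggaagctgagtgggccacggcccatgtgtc
ITGA4 (chr2:181457136-181457385, plus strand): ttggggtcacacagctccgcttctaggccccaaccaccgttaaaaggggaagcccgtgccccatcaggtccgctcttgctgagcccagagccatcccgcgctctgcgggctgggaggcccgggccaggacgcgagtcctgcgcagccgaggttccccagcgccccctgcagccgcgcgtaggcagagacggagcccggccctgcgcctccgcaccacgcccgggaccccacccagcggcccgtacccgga
The match began 127 bases before the start of ITGAM and 152 bases before that of ITGAE. Searched on both strands, GAGGAA was in 3 of the 8 windows (ITGAM, ITGAE and 1 of 2 for ITGB1), and in 23.6% of 35116 windows of the same length over all genes. TGTGGT, the core of RUNX sites, neither motif containing the other, was in 1 of 8 (ITGA6) and in 11% of all windows. A match is a description of the letters and not a measured site.

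Likeness was taken as the root mean square difference of the log2 of CPM plus 0.5, centred over the 7 libraries. Among 10286 other protein-coding genes of at least 5 CPM, the gene nearest to ITGAM was NRP1 (0.0684). NRP1 had means of 27.7 CPM in RY, 0.030 in KO and 2.01 in WT. The nearest to ITGB2 was STAP1 (0.148), to ITGB1 TRPM2 (0.0628), to ITGA4 VSIR (0.0474), to ITGA5 APOLD1 (0.111), to ITGA6 SMARCD3 (0.141), to ITGAX HOXC4 (0.141), to ITGAL IFT140 (0.0872) and to ITGAE PPP2CA (0.0227). A flat gene such as ITGAE finds near neighbours more easily than a steep one on this measure, and all points share the same 7 libraries. The added 0.5 CPM compresses differences among levels near or below it, so a near gene need not share the fold against KO. SMARCD3 averaged 13.9 CPM in RY and 0.0722 in KO, against 33.2 and 1.02 for ITGA6. HOXC4 averaged 10.7 CPM in RY and 0.654 in KO, against 4.42 and 0 for ITGAX.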

How the data were processed

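RNA was measured by bulk sequencing of 7 libraries, grouped by the sample titles into RY (3), KO (2) and WT (2). The authors deposited a raw count per Ensembl gene, used for all tests, and tables of each edited line against WT with a log2 fold change and an adjusted p-value, cut at 2-fold and 0.05. The submitters' processing notes name GRCh38 and, with no roles, edgeR 1.34.1, STAR 2.7.4, FastQC and HTSeq 0.9.1. The strand setting of the counting is not given in the sources used here. The library kit was stranded per the labels' protocols.

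Of 60666 identifiers, 60437 had a symbol and 58420 a position in GENCODE release 29 (GRCh38). Counts were fitted with edgeR 4.0.16 in R 4.3.3 (quasi-likelihood test, legacy = FALSE, TMM scaling, filterByExpr with a minimum count of 10, a term per group, all 7 libraries), leaving 18281 genes for adjustment. CPM use TMM-scaled library sizes; folds are ratios of summed reads over summed scaled library sizes. Levels are compared between genes per kilobase of merged exons. A group with 0 reads was set at 3 reads for a bound, which covers counting error only. No library repeated another: chi-square per gene was 7.88 to 77.7 within groups. The fit was tested on simulated data. DESeq2 1.42.0 was an alternative.

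The subunits, gene lists and naming rule were chosen with earlier results of these data known. All 10 subunits are named, with up to 4 called other subunits and 3 called genes of each further list per comparison by adjusted p, and the 1 nearest gene by profile. CSF3R, AIF1, MPO and ITGAD, and genes that share sequence or exons with a subunit, were named after their values were seen.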

Additional observations from a re-analysis of the deposited data

How the results depend on the processing

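The counts of 8 called subunits in RY against WT and in RY against KO were the same under every alternative with the 2-fold minimum, except without WT replicate 2, where ITGAL was lost and RY against WT had 7. In KO against WT the count of 2 ran from 2 to 4 over the fits without one library, was 3 with DESeq2, which called ITGA6 too, and was 4 with no minimum fold, which adds ITGA4 and ITGB1. Without that minimum 3014 genes in all passed, against 1991. Leaving out 1 library turned the sign of 3 uncalled KO against WT log2 fold changes: ITGA5 ran from -0.64 to 0.54, ITGAE from -0.17 to 0.06 and ITGAL from -0.28 to 0.52. ITGAX, uncalled with all libraries, ran from -6.49 to 0.00 without turning positive, and stood at 0.00 where KO and the remaining WT library both had 0 reads. The counts of called genes in the rest of the integrin system, 15, 46 and 50, moved by less than 1.5 times under every alternative run.

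The replicate block left the counts at 2, 8 and 8 called subunits (KO against WT, RY against WT, RY against KO) and at 14, 44 and 50 other genes of the integrin system, against 15, 46 and 50. The numbers do not pair the libraries by the labels. Deviations from group means correlated at -0.30 between same-numbered KO and WT libraries. A fit of the KO and WT libraries only with the numbers crossed, chosen after seeing the data, called 3 subunits and 2204 genes in all. With no block, those libraries alone gave 2 subunits and 1462 genes. Scaling by library size only moved the median of all genes in RY against WT to 0.165, against -0.025, and changed no call of a subunit. The legacy edgeR fit, also chosen after seeing the data, changed none. Depth limits ITGB3 and the KO values of ITGAM and ITGAX. Reads of ITGB2 and its antisense gene ITGB2-AS1 (292 to 507 reads in RY, 262 and 132 in KO, 83 and 212 in WT), and of ITGB1 and its copy ITGB1P1, may be split between them by the counting.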
